A study of Mus musculus with 4 samples.

Results

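The genes described here belong to transforming growth factor beta (TGF-beta) signalling. They are the ligands Tgfb1, Tgfb2 and Tgfb3, the receptors and co-receptors Tgfbr1, Tgfbr2, Tgfbr3, Acvrl1, Eng and Bmpr2, and the induced matrix gene Tgfbi. They were chosen by name, and all 10 stood among the 15746 genes of the count table. Their levels were followed over the 13 cell populations that the study's authors named, to describe which cells carried transcripts of the ligands and which carried those of the receptors. The study catalogued the cells of the mouse Achilles tendon, the tendon between the calf muscles and the heel bone, with droplet-based single-cell RNA sequencing of transcript 3' ends. Its 4 libraries form 1 group, from male C57Bl/6 mice at 6 weeks of age. The labels name no treatment and no altered allele. How many mice went into each library is not stated, so p-values here measure the spread between these libraries, which may be technical. For immune cells that spread was shared over genes (below).

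TGF-beta ligands are secreted in a latent form, bound to a propeptide and to latent TGF-beta binding proteins that hold them in the matrix. Once released, a ligand dimer binds the type II receptor, encoded by Tgfbr2, which phosphorylates a type I receptor. That is ALK5, encoded by Tgfbr1, in most cells, which activates SMAD2 and SMAD3, while endothelial cells also use ALK1, encoded by Acvrl1, which activates SMAD1 and SMAD5. Betaglycan, encoded by Tgfbr3, presents ligand to the type II receptor, and endoglin, encoded by Eng, is the co-receptor of ALK1. Bmpr2 encodes the type II receptor that partners ALK1 for bone morphogenetic protein (BMP) ligands. In tendon, TGF-beta signalling is known for its part in tendon progenitor formation and in matrix production.

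The table held 1191 cells, with 580, 246, 256 and 109 in libraries 1, 2, 3 and 4, and 1375111 to 5603366 unique molecular identifiers (UMIs, each a captured transcript) per library. The populations were pooled by name into 7 classes: 380 tendon fibroblasts, 40 bursal fibroblasts, 300 endothelial cells, 107 pericytes, 92 immune cells, 127 nerve cells and 145 red blood cells. Defining markers fitted these names, being highest in the class of that name for 7 of 8 tendon fibroblast, 5 of 5 bursal, 7 of 7 endothelial, 7 of 8 pericyte, 8 of 8 nerve, 8 of 8 immune and 5 of 5 red blood cell markers. Some sums stood apart from others of their class. In the 6 nerve cells of library 4, nerve markers summed to 8799 CPM, against 56067 to 84205 in the other libraries, pericyte markers to 1473 against 49.5 to 76.4, and immune markers to 421 against 5.24 to 24.7. In the 10 immune cells of library 2, immune markers summed to 7884 CPM, against 15615 and 17831 in libraries 1 and 3, and 4 markers of other leukocytes to 881 against 85.2 and 0. Without library 4, 7 of the 10 genes were called in nerve cells in place of 6, and without library 2, 7 were called in immune cells in place of 6. The part of these other markers in the results was not tested. No cell barcode was shared between libraries. A level is given as CPM, the UMIs of a gene over the UMIs of all genes in the cells of a class in 1 library, on the usual CPM scale, and means are over libraries with 5 or more cells of the class. That rule left out the 3 immune cells of library 4, and library 2 held 0 bursal fibroblasts. Levels were not compared between genes. In red blood cells, which have lost their nucleus, the mean level of each of the 10 genes lay between 0 and 5.49 CPM, which serves as the background of free RNA.

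Each class was compared with all other cells of the same library except red blood cells. A gene was called at an adjusted p under 0.05 (edgeR's quasi-likelihood test on summed counts with the library as a block, adjusted over all genes tested). Because the authors formed the populations from the same counts, a large share of all genes differed in most of these comparisons, and the counts of called members are to be read against that share. Tendon fibroblasts had 7 of 10 called (5 higher, 2 lower), where 29.3% of all genes tested were called. Endothelial cells had 9 of 10 (5 higher, 4 lower), against 31.4% of all genes. Of all genes, 13.3% were called higher and 16% lower in the first of these comparisons, and 15.3% and 16.1% in the second. For immune cells 6 were called (2 higher, 4 lower), against 24.6% of genes, with 7.15% higher and 17.4% lower. The other classes had calls in 1 direction only. In nerve cells 6 were lower, against 21.7% of genes called, 8.32% higher and 13.4% lower. In pericytes 4 were lower, against 15.1% called, 7.7% higher and 7.41% lower. In bursal fibroblasts 3 were lower, against 15.8% called, 4.07% higher and 11.7% lower. The median log2 fold change of all genes tested was -0.22 in the immune, -0.14 in the nerve, -0.12 in the bursal, -0.04 in the pericyte comparison and -0.02 in the other two, so the fold changes below stand relative to these values. In the immune comparison the p-values were those of a normal distribution for the fold change over its standard error. There the fit used a spread shared over genes, not each gene's own spread between its few libraries. Adjusted p values of immune cells are therefore not to be compared in size with those of the other classes.

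**Figure D1:**
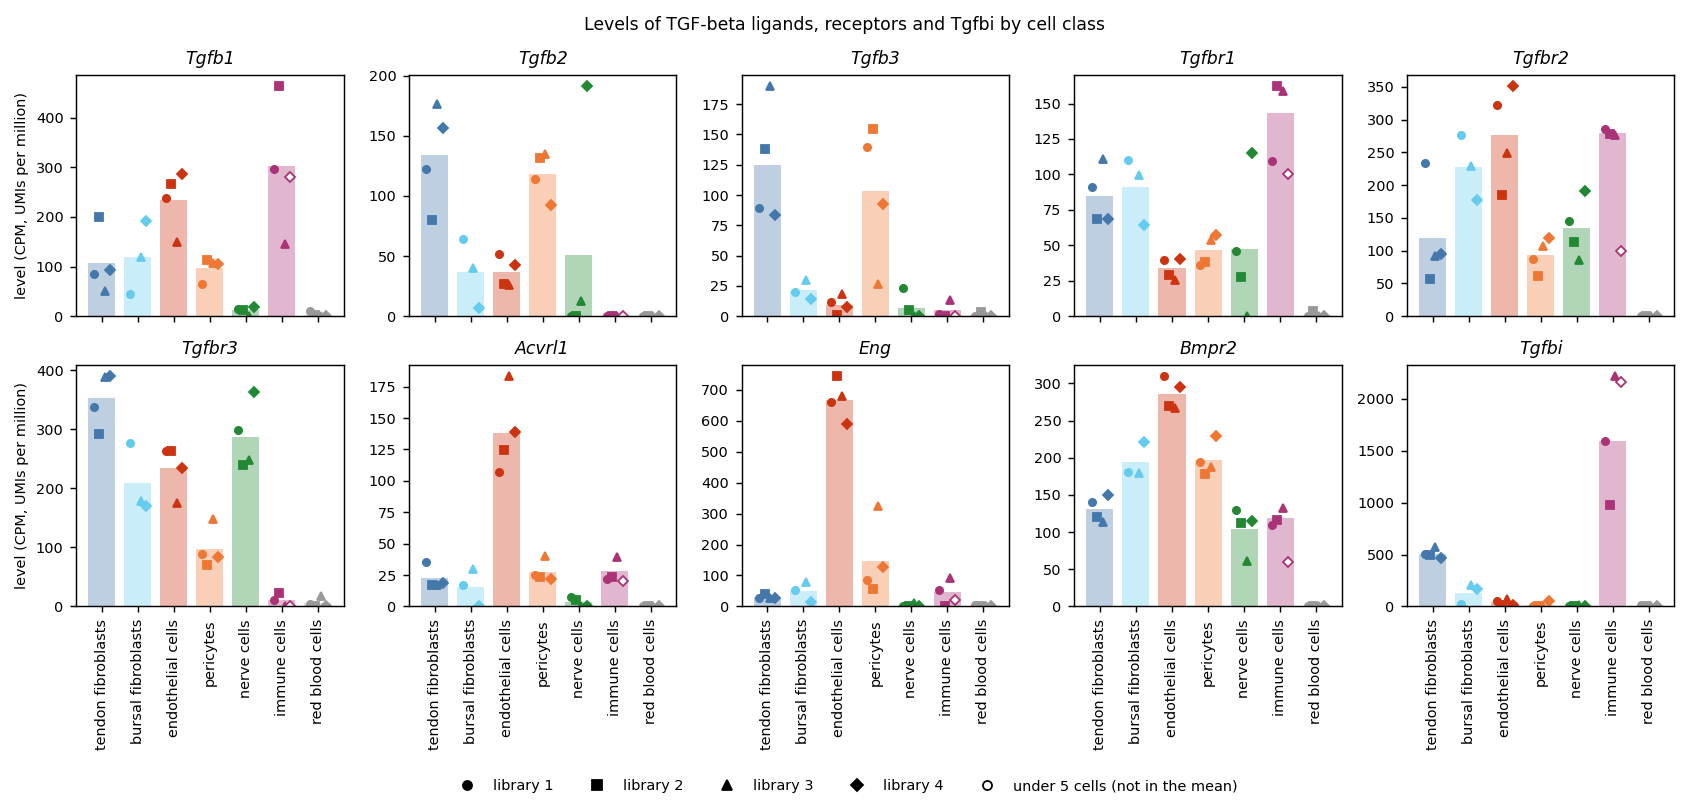
Level of each gene (CPM, vertical axis from 0, scaled per gene) in each cell class, with 1 marker per library (open where it had under 5 cells) and a bar at the mean of the others. Acvrl1 and Eng stand highest in endothelial cells in all 4 libraries, the means of Tgfb2 and Tgfb3 in tendon fibroblasts and pericytes, and Tgfbi in immune cells.

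Tgfb1 differed from Tgfb2 and Tgfb3 in the classes where it was highest. Tgfb1 was highest in immune and endothelial cells, while Tgfb2 and Tgfb3 were highest in tendon fibroblasts and pericytes and close to absent from immune cells. The stretch of 250 bases upstream of the annotated start is shown for Tgfb1 and Tgfb2, since they were highest in different classes and have an entry in the promoter table used (RefSeq, build GRCm38.p6, 5' to 3' on the gene's strand). Capitals mark matches, on either strand, to 5 short motifs. The ETS core was searched as GGAA. The GC box was searched as GGGCGG and the TATA box, which places the start in some promoters, as TATAAA. The E-box was searched as CACGTG, a palindrome. The half-site of the cyclic AMP response element (CRE) was searched as TGACG.
Tgfb1, chr7:25686752-25687001, plus strand: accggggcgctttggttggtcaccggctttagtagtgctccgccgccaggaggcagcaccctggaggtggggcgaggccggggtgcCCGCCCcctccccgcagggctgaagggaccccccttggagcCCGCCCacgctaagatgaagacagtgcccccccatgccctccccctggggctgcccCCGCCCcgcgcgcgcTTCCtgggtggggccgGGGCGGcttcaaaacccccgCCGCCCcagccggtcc
Tgfb2, chr1:186705990-186706239, minus strand: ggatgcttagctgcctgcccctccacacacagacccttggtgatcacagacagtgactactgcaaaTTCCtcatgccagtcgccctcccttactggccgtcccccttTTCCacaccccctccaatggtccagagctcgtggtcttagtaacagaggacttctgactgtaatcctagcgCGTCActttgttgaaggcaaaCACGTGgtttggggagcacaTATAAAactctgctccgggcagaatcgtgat
The Tgfb1 stretch held 5 GC boxes and 1 ETS core and no match to the other motifs, and 75.2% of its bases were G or C. The Tgfb2 stretch held 1 TATA box, 1 E-box, 1 CRE half-site and 2 ETS cores, no GC box, and 53.6% G or C. Over the 32851 promoters of that RefSeq table the median was 52.4% G or C. Of those promoters, 32.74% held a GC box, 12.37% a TATA box, 6.021% an E-box, 17.77% a CRE half-site and 93.45% an ETS core in the same window. No 2 matches overlapped in these stretches. A match describes the letters only, not a bound site.

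Tgfb1 (chr7:25687002-25705077, plus strand, GRCm38) encodes the most widely studied TGF-beta isoform. In endothelial cells its level was 239, 265, 150.2 and 286 CPM in libraries 1 to 4, with a mean of 235 ± 59.7 (SD, n = 4). The other cells of those libraries stood at 91.8 ± 25.3 CPM, and the ranges did not overlap. The fitted log2 fold change was 1.12 (SE 0.17, edgeR adjusted p = 0.00158), and the call held in all 12 alternatives. Among these, sums of 10 or more cells repeated the main fit for this class. Immune cells had 296, 464 and 145 CPM in libraries 1, 2 and 3, a mean of 302 ± 159 (SD, n = 3), which overlapped the range of endothelial cells. Their difference from other cells was 0.95 (SE 0.38, edgeR adjusted p = 0.0465), higher in 3 of 3 libraries, with adjusted p values from 9.9e-04 to 0.388 over 10 alternatives, 6 of which lost the call. Those included leaving out library 1 or library 3. Markers of platelets, which are rich in Tgfb1, and of other leukocytes (above) were higher in the immune cells of library 2, where Tgfb1 was highest. There, Ppbp, Itga2b, Treml1 and Gp9 summed with Gp1bb to 928 CPM in the 10 immune cells, against 11.1 CPM in library 1 and 0 in library 3, while Gp1bb itself was at 0 in the immune cells of every library. Pf4, a platelet gene that macrophages also express, stood at 4332, 1693 and 4240 CPM in libraries 1 to 3. Without library 2 the log2 fold change of Tgfb1 was 0.92 and still passed (edgeR adjusted p = 0.0235), in a fit that rests on 2 libraries.

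In tendon fibroblasts Tgfb1 had 84.4, 201, 50.9 and 92.7 CPM, with library 2 (14 cells) highest, and it did not pass the test against other cells (log2 fold change -0.41, edgeR adjusted p = 0.285). That comparison passed when library 2 was left out, at a log2 fold change of -0.74 and over a range of adjusted p values from 0.00952 to 0.604 in 12 alternatives. Pericytes stood at 65.4, 114, 108 and 106 CPM and bursal fibroblasts at 45.7, 119.6 and 192 CPM in libraries 1, 3 and 4. Neither class passed, although pericytes were called lower without library 3 and without the cells of highest UMI count (edgeR adjusted p from 0.0404 to 0.578 over 12 alternatives). In nerve cells Tgfb1 was near background, at 15.3, 12.2, 0 and 19.1 CPM from 12 UMIs in all, and lower than in other cells (log2 fold change -3.80, SE 0.44, edgeR adjusted p = 0.00032).

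Tgfb2 (chr1:186622792-186705989, minus strand, GRCm38), the isoform known for roles in heart and skeletal development, had 123, 80.3, 176 and 157 CPM in tendon fibroblasts. The other cells had a mean of 45.6 ± 10.2 CPM (SD, n = 4), below every tendon fibroblast value. The log2 fold change was 1.91 (SE 0.23, edgeR adjusted p = 0.00024), a call that all 12 alternatives kept. Pericytes had 114, 131, 134 and 92.8 CPM, within the range of tendon fibroblasts, and did not pass against the rest (0.79, edgeR adjusted p = 0.308), which included the tendon fibroblasts. Endothelial cells were lower, at 51.7, 26.8, 25.6 and 43.0 CPM (log2 fold change -1.50, SE 0.31, edgeR adjusted p = 0.00806). That call was lost after thinning every cell to 2400 UMIs.

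Immune cells showed no Tgfb2 at all. In the 3 libraries tested, 0 UMIs were found where the other cells had 783, which puts Tgfb2 at least 19.5-fold lower in immune cells, with a floor of 3 counts over the group (edgeR adjusted p = 2.6e-12). After thinning to equal depth, 0 of 87 immune cells had a UMI, which allows a share of cells with a UMI of up to 3.45% (3 counts of 87), against 23.9% of 355 tendon fibroblasts and 0 of 106 red blood cells. Before thinning these shares were 0 of 92 immune cells and 50.5% of tendon fibroblasts, at median depths of 7108.5 and 9097.5 UMIs. In nerve cells Tgfb2 stood at 0, 0, 12.4 and 191 CPM. The 191 CPM of library 4 came from 10 UMIs in 1 of 6 cells, and the class did not pass the test (edgeR adjusted p = 0.0981). In 6 of 12 alternatives, leaving out library 4 among them, it was called lower (7.7e-10 to 0.324). Sums of 10 or more cells were the same fit as leaving out library 4.

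Tgfb3 (chr12:86056745-86079041, minus strand, GRCm38), the isoform often linked to scarless repair, followed Tgfb2 in its distribution. Its level in tendon fibroblasts was 89.1, 138, 190.0 and 83.2 CPM, against a mean of 28.0 ± 6.62 (SD, n = 4) in other cells. No value of the other cells reached this range. The difference was 2.40 on the log2 scale (SE 0.31, edgeR adjusted p = 0.00039). Pericytes had 139.8, 155, 26.9 and 92.8 CPM, where library 3 rests on 2 UMIs from 11 cells. The class did not pass (1.38, edgeR adjusted p = 0.235), but did with library 3 left out, when cells were thinned or when the other classes had equal weight, with adjusted p values from 0.00582 to 0.616 over 12 alternatives. Endothelial cells had 11.4, 1.22, 18.3 and 7.58 CPM, lower than other cells by a log2 fold change of -3.46 (SE 0.37, edgeR adjusted p = 0.00028). Immune cells held 2 UMIs of Tgfb3 against 663 in other cells, a CPM ratio of 24.7 with an exact 95% interval of 6.82 to 205. Nerve cells (-2.76, edgeR adjusted p = 0.0112) and bursal fibroblasts (-1.59, edgeR adjusted p = 0.0181) were lower too. The nerve call was lost without library 2, and the bursal call was lost in 4 of 8 alternatives, leaving out library 3 among them.

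The receptors differed in how widely they were spread over the classes. Tgfbr1, Tgfbr2 and Bmpr2 were found in every nucleated class, with low Tgfbr1 in endothelial cells and pericytes. Acvrl1 and Eng were concentrated in endothelial cells. Tgfbr1 (chr4:47353222-47414931, plus strand, GRCm38), the ALK5 gene, had 90.9, 68.8, 111 and 68.9 CPM in tendon fibroblasts, against 51.6 ± 12.3 (SD, n = 4) in other cells. It was higher there by 1.09 on the log2 scale (SE 0.20, edgeR adjusted p = 0.00267). In endothelial cells it had 39.7, 29.2, 25.6 and 40.5 CPM, below the 75.7 ± 26.6 of other cells (log2 fold change -1.29, SE 0.27, edgeR adjusted p = 0.00856). Both calls held in all 12 alternatives. Pericytes, at 46.4 ± 10.8 CPM (SD, n = 4), overlapped endothelial cells and did not pass (-0.53, edgeR adjusted p = 0.297). After thinning, 9.03% of 277 endothelial cells, 8.65% of 104 pericytes, 7.21% of 111 nerve cells and 5.41% of 37 bursal fibroblasts had a Tgfbr1 UMI. The share was 20% of 355 tendon fibroblasts and 23.0% of 87 immune cells. Nerve cells had 45.8, 28.0, 0 and 115 CPM from 34 UMIs, with library 4 (6 cells) highest, and did not pass (-0.69, edgeR adjusted p = 0.448). Over all their cells together the level was 35.1 CPM, next to 35.8 in endothelial cells. The highest mean was in immune cells, with 109, 162 and 158.5 CPM, which lay above the other cells in 3 of 3 libraries but did not pass (0.72, edgeR adjusted p = 0.201). The comparison passed for immune cells when other classes were weighted equally, with adjusted p values from 0.0315 to 0.506 over 10 alternatives.

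Tgfbr2 (chr9:116084293-116175360, minus strand, GRCm38), the type II receptor, had 323, 185, 249 and 351 CPM in endothelial cells and 285, 278 and 277 CPM in immune cells. In endothelial cells it exceeded other cells in 4 of 4 libraries by 0.81 on the log2 scale (SE 0.20, edgeR adjusted p = 0.0173). The call was lost without the library block and without library 3 or library 4, over adjusted p values from 0.0117 to 0.087. The class was not uniform. Means were 260 CPM in endothelial cells 1 and 123 CPM in endothelial cells 2, beside 135 ± 57.5 CPM in the other cells. Endothelial cells 3, with 36 of 300 cells, held 269 of the 896 UMIs of the class. Their part in the call was not tested. The immune difference of 0.42 did not pass (edgeR adjusted p = 0.529). Tendon fibroblasts had 234.5, 57.4, 91.3 and 95.04 CPM, so library 1 stood above the 3 others. They were lower than other cells in 4 of 4 libraries without passing the test (-0.52, edgeR adjusted p = 0.118). With library 1 left out the value was -0.85 and passed, over adjusted p values from 0.0223 to 0.499 in 12 alternatives. Endothelial markers summed to 29.9 CPM in the tendon fibroblasts of library 1 and to 16.8 to 40.4 CPM in those of the 3 others. Pericytes, at 87.2, 61.2, 108 and 119 CPM, were lower than other cells (log2 fold change -1.11, SE 0.24, edgeR adjusted p = 0.0177). That was lost without library 1 or library 4.

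Tgfbr3 (chr5:107106570-107289629, minus strand, GRCm38), the betaglycan gene, separated the fibroblast, nerve and endothelial classes from pericytes and immune cells. Tendon fibroblasts had 338, 293, 389 and 389.7 CPM, above the 189 ± 23.6 (SD, n = 4) of other cells with no overlap (log2 fold change 1.30, SE 0.20, edgeR adjusted p = 0.00099). Nerve cells had 298, 239, 247 and 363 CPM and endothelial cells 263, 263, 176 and 235 CPM, and neither passed against the rest (edgeR adjusted p = 0.928 and 0.408). Pericytes were lower, at 89.0, 70.0, 148 and 83.9 CPM (-1.66, SE 0.20, edgeR adjusted p = 0.00135). Immune cells were lowest, at 11.1, 23.2 and 0 CPM from 7 UMIs, against 279 ± 57.4 (SD, n = 3) in other cells (-4.96, SE 0.58, edgeR adjusted p = 2.5e-16). Each of these 3 calls held in every alternative run. Immune cells thus carried Tgfbr2 within the range of endothelial cells with almost no Tgfbr3 transcripts.

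Acvrl1 and Eng were highest in endothelial cells as a class. Acvrl1 (chr15:101128522-101145336, plus strand, GRCm38) had 107, 124, 183 and 139 CPM in endothelial cells and 18.8 ± 6.05 (SD, n = 4) elsewhere, a log2 fold change of 2.57 (SE 0.26, edgeR adjusted p = 0.00023). No other class averaged over 28.3 CPM. The lowest endothelial library lay above every library of the other classes with 5 or more cells. Eng (chr2:32646595-32682669, plus strand, GRCm38) had 659.6, 743, 678 and 589 CPM in endothelial cells and 39.3 ± 11.4 (SD, n = 4) elsewhere, a log2 fold change of 3.86 (SE 0.28, edgeR adjusted p = 5.4e-05). Both calls held in all 12 alternatives. The 250 bases upstream of Eng, shown as the endothelial contrast to the ligand promoters above (same source, build and capitals), held 3 ETS cores and no match to the 4 other motifs.
Eng, chr2:32646345-32646594, plus strand: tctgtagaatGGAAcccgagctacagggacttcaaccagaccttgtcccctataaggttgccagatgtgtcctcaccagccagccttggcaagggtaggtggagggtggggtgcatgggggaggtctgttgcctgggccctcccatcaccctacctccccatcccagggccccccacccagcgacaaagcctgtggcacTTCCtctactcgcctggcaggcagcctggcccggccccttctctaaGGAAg

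Eng was also read in pericytes, at 85.3, 55.4, 323 and 128 CPM. Summed endothelial markers in the same pericyte sums were 610.1, 426, 1802 and 1117 CPM, so the 4 libraries stood in the same order for both. The part of endothelial transcripts in this level was not tested. Eng in pericytes did not pass against other cells (-1.05, edgeR adjusted p = 0.239, from 0.0159 to 0.597 over 12 alternatives, 4 of which passed, leaving out library 3 among them). Tendon fibroblasts (27.0 to 40.2 CPM, log2 fold change -3.15, edgeR adjusted p = 5.1e-06), immune cells (-2.36, edgeR adjusted p = 1.8e-06) and bursal fibroblasts (-2.003, edgeR adjusted p = 0.00532) were lower than other cells in every alternative. Nerve cells held 1 UMI of Eng against 2430 in other cells, a CPM ratio of 239.9 with an exact 95% interval of 43.0 to 9478. Acvrl1 was lower in nerve cells as well, with 5 UMIs in all (-3.65, SE 0.55, edgeR adjusted p = 0.00124). It was lower in tendon fibroblasts (-1.21, edgeR adjusted p = 0.0132) and pericytes (-1.17, edgeR adjusted p = 0.0320), but the first call was lost in 4 of 12 alternatives and the second in 3 of 10. Leaving out library 3 or 4, thinning, or equal weights for the other classes ended the first, and leaving out library 1, 2 or 4 ended the second. The first had log2 fold changes from -1.77 to -0.296 over its 12 alternatives. In each comparison the other cells included the endothelial cells, where both genes were highest. Acvrl1 in tendon fibroblasts (mean 22.3 CPM) overlapped its levels in pericytes (27.8), immune cells (28.3) and bursal fibroblasts (15.6 CPM).

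Bmpr2 (chr1:59763400-59879014, plus strand, GRCm38), the BMP type II receptor gene, was read in every nucleated class and was highest in endothelial cells. Endothelial cells had 309.6, 270.3, 268 and 296 CPM, above the 144 ± 23.9 (SD, n = 4) of other cells (log2 fold change 0.76, SE 0.16, edgeR adjusted p = 0.00899). Without library 1 that call was lost, within a range of 0.00437 to 0.0599 over 12 alternatives. Pericytes (178 to 229.7 CPM) and bursal fibroblasts (179 to 221 CPM) came next and overlapped each other, followed by tendon fibroblasts (114 to 149.7 CPM), immune cells (109 to 132 CPM) and nerve cells (61.8 to 129.9 CPM), which overlapped in turn. Nerve cells were the only class called lower (-0.98, SE 0.31, edgeR adjusted p = 0.0482), and 6 of 12 alternatives lost that call, including each that left out library 1, 2 or 3.

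**Figure D2:**
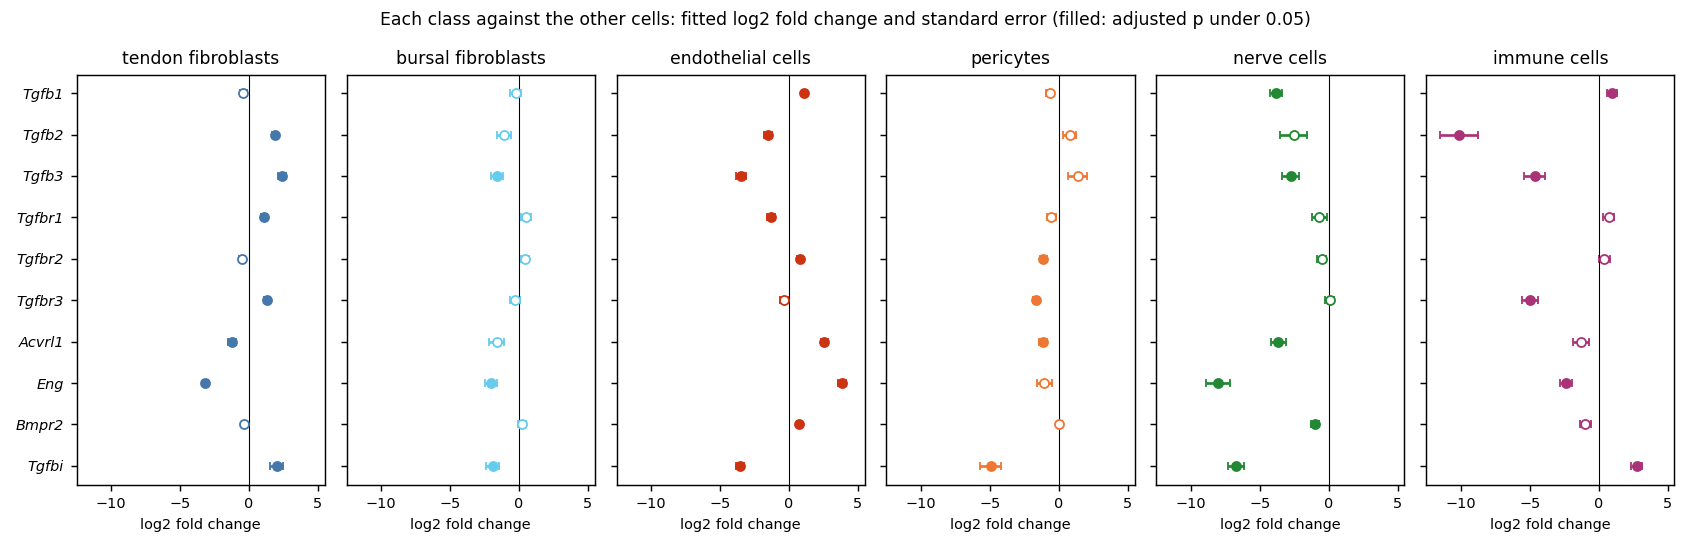
Fitted log2 fold change (horizontal axis) with its standard error for each gene in each class against the other cells, with filled points where the adjusted p was under 0.05. Acvrl1, Eng, Bmpr2, Tgfb1 and Tgfbr2 lie to the right of 0 in endothelial cells, and no point in nerve cells, pericytes or bursal fibroblasts that lies to the right is filled, while the points of genes with 0 to 2 UMIs in a class (Tgfb2 and Tgfb3 in immune cells, Eng and Tgfbi in nerve cells) depend on the prior count and give no size.

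Tgfbi (chr13:56609523-56639562, plus strand, GRCm38) encodes a secreted matrix protein first found as a TGF-beta-induced transcript. Immune cells carried it at 1599, 974 and 2219 CPM, against 236 ± 203 (SD, n = 3) in other cells, and the ranges did not overlap. The log2 fold change was 2.75 (SE 0.41, edgeR adjusted p = 5.7e-10), and only the fit without the library block lost the call among 10 alternatives (adjusted p from 4.2e-21 to 0.0564). In library 2 its 42 UMIs came from 4 of 10 immune cells, with 64.3% of them in 1 cell, the library in which platelet and other leukocyte markers were higher. In library 1 64 of 70 immune cells had a UMI. Tendon fibroblasts had 506, 493, 576 and 468 CPM (log2 fold change 2.03, SE 0.47, edgeR adjusted p = 0.0103), called in all 12 alternatives. Endothelial cells, at 14.6 to 73.3 CPM (-3.53, edgeR adjusted p = 6.9e-05), and pericytes, at 0 to 48.6 CPM (-4.95, edgeR adjusted p = 0.00356), were lower in every alternative. Nerve cells held 2 UMIs of Tgfbi against 3457 in other cells, a CPM ratio of 171 with an exact 95% interval of 47.2 to 1409. Bursal fibroblasts had 22.0, 209 and 171 CPM and were lower (-1.90, SE 0.49, edgeR adjusted p = 0.0150), a call lost without library 1 and in 2 other alternatives of 8.

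The share of a gene's UMIs that a class held depends on how many cells of the class a library contained as well as on its level. Endothelial cells held 84.1% ± 11.4 of Eng, 72.2% ± 13.7 of Acvrl1, 49.5% ± 17.1 of Tgfb1, 45.0% ± 15.8 of Tgfbr2 and 43.8% ± 14.8 of Bmpr2 UMIs (SD, n = 4), beside 26.7% ± 10.4 of the UMIs of all genes. Tendon fibroblasts held 60.0% ± 27.7 of Tgfb3, 55.1% ± 30.9 of Tgfb2, 61.7% ± 14.6 of Tgfbi, 48.4% ± 30.6 of Tgfbr3 and 44.8% ± 28.6 of Tgfbr1, beside 34.9% ± 26.3 of all UMIs. These shares varied widely between libraries, and tendon fibroblasts made up 5.69% of the cells of library 2 and 63.3% of those of library 3. In library 3, for example, they held 53.2% of Tgfb1, more than the 26.6% in endothelial cells. Pericytes held 32.1% ± 26.2 of Tgfb3 and 23.2% ± 22.5 of Tgfb2. For Tgfb2 this was 55.6% in library 2 and 3.27% to 18.3% in the others, and the mean was 14.9% after thinning. Immune cells, 4.63% ± 3.42 of all UMIs, held 30.7% ± 13.1 of Tgfbi and 10.1% ± 7.08 of Tgfb1.

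**Figure D3:**
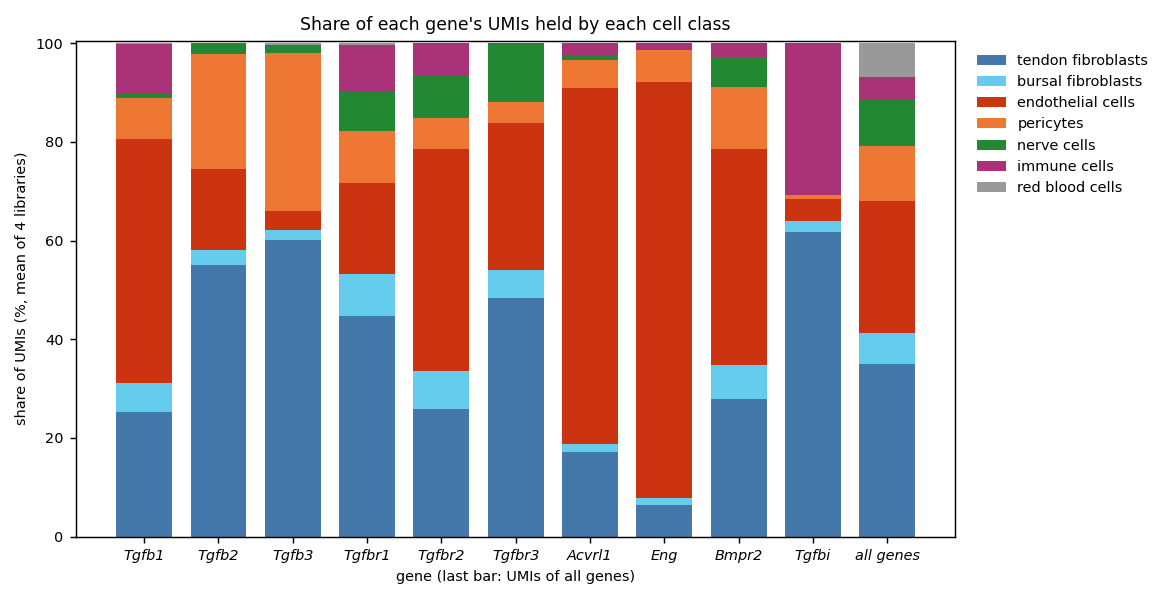
Share of the UMIs of each gene (vertical axis, mean of 4 libraries in percent) held by each cell class, with all genes in the last bar for reference. Endothelial cells hold 84.1% of Eng and 72.2% of Acvrl1, and tendon fibroblasts hold 55.1% to 61.7% of Tgfb2, Tgfb3 and Tgfbi.

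Single cells were compared after thinning each to 2400 UMIs, which left out 114 shallower cells. At this depth 72.9% of 277 endothelial cells had an Eng UMI (exact 95% interval 67.3 to 78.1) and 24.2% an Acvrl1 UMI, against 0.943% and 0 of 106 red blood cells. Before thinning those endothelial shares were 90.3% and 54.3%. A UMI of both genes was read in 17.7% of thinned endothelial cells (13.4 to 22.7), and in at most 2.70% of any other class. Before thinning these were 51.3% and at most 15%. For the pair Tgfbr1 and Tgfbr2, the shares were 10.3% of 87 immune cells (4.84 to 18.7), 3.10% of 355 tendon fibroblasts (1.56 to 5.48), 2.89% of 277 endothelial cells and 0 of 106 red blood cells. Bursal fibroblasts had 2.70% of 37. Before thinning these shares were 39.1%, 27.1%, 20% and 0, and bursal fibroblasts, the deepest cells at a median of 20284 UMIs, had the largest, 65% of 40. Intervals and floors cover counting error only, and cells of 1 library are not replicates, so these shares carry no test.

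Endothelial cells and pericytes are both vessel cells, and the direct comparison asked how the pathway divides between them. Of 8 members tested 6 were called (5 higher, 1 lower), against 34.1% of all genes tested (17.9% higher, 16.2% lower). Higher in endothelial cells were Eng (log2 fold change 2.40), Acvrl1 (2.15), Tgfbr2 (1.49), Tgfbr3 (1.30) and Tgfb1 (1.24), each in 4 of 4 libraries, with edgeR adjusted p values from 7.3e-05 to 0.00170. Among the 8 tested, Tgfb2 was the 1 member higher in pericytes, with 118 ± 19.1 CPM against 36.8 ± 12.7 CPM (SD, n = 4; log2 fold change -1.74, SE 0.27, edgeR adjusted p = 0.00065). All 6 calls held in every alternative that tested the gene. After thinning only 5 members were tested, without Acvrl1 and Tgfb2. Bmpr2 (0.41, edgeR adjusted p = 0.0956) and Tgfbr1 (-0.43, edgeR adjusted p = 0.287) did not pass. Tgfb3 and Tgfbi fell under the filter on low counts. Without that filter 8 of 10 members were called, 6 higher and 2 lower in endothelial cells. Their levels were 9.64 ± 7.16 and 40.5 ± 29.0 CPM in endothelial cells and 104 ± 57.5 and 12.6 ± 24.0 CPM in pericytes.

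Within endothelial cells the authors named 3 populations. Endothelial cells 1 and 2 differed in 2 of 7 members tested, against 18.2% of all genes (7.74% higher, 10.5% lower). Tgfbr2 was higher in endothelial cells 1, at 279.9, 202, 185 and 374 CPM against 105, 122, 185 and 81.0 CPM in endothelial cells 2. The values of library 3 were 184.7 and 185.008 CPM, so 3 of 4 libraries were higher, and the log2 fold change was 1.03 (SE 0.24, edgeR adjusted p = 0.00569). Without library 1 the call was lost, over a range of 1.9e-04 to 0.082. Tgfb1 was higher in endothelial cells 1 in 4 of 4 libraries, at 267 ± 59.7 against 149.9 ± 64.4 CPM (0.63, SE 0.20, edgeR adjusted p = 0.0346), but 7 of 10 alternatives lost that call, among them each that left out a library (0.0022 to 0.112). Acvrl1 (144 against 147 CPM) and Eng (658 against 718 CPM) were not called. Bmpr2 (254 against 338 CPM) did not pass (-0.54, edgeR adjusted p = 0.0704) but was called lower in 4 of 10 alternatives, leaving out library 4 among them (1.6e-04 to 0.437). For all genes of this comparison, sums of 10 or more cells were the same fit as leaving out library 4.

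Endothelial cells 3 carried the lymphatic markers Prox1, Flt4 and Mmrn1 in all 4 libraries, at 6766 to 25130 CPM for the list with Lyve1 and Ccl21a. The same list summed to 21.1 to 79.0 CPM in endothelial cells 1 and 2. Library 1 held 26 of these cells and the other libraries 4, 3 and 3, so there was no test. Tgfbr2 stood at 793 CPM in library 1 (exact 95% interval 689.9 to 906), above the 279.9 CPM (248 to 314) of endothelial cells 1 and the 105 CPM (74.8 to 143) of endothelial cells 2 in the same library. The few cells of libraries 2, 3 and 4 gave 741, 917 and 1514 CPM, from 16, 22 and 17 UMIs. After thinning, 90.6% of 32 endothelial cells 3 had a Tgfbr2 UMI (74.98 to 98.0), against 39.8% of 176 endothelial cells 1 (32.5 to 47.4) and 26.1% of 69 endothelial cells 2 (16.3 to 38.1). These cells thus had the highest Tgfbr2 level of any population in each library.

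Tgfbi stood at 315 CPM in endothelial cells 3 of library 1, with 16 of 26 cells carrying it, against 6.92 and 5.23 CPM in endothelial cells 1 and 2. It was at 0, 792 and 356 CPM in libraries 2, 3 and 4, from 0, 19 and 4 UMIs. Tgfb2 was at 207 CPM in library 1, but 31 of its 56 UMIs came from 1 cell and 6 of 26 cells had any. Acvrl1 was at 63.0 CPM (36.7 to 100.8) in library 1, against 112 (92.1 to 134) and 126 (92.6 to 167) in endothelial cells 1 and 2. Eng was at 596 CPM, next to 649 and 733. Part of the Tgfb2, Tgfbr2 and Tgfbi level of the endothelial class in library 1 therefore came from this population.

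**Figure D4:**
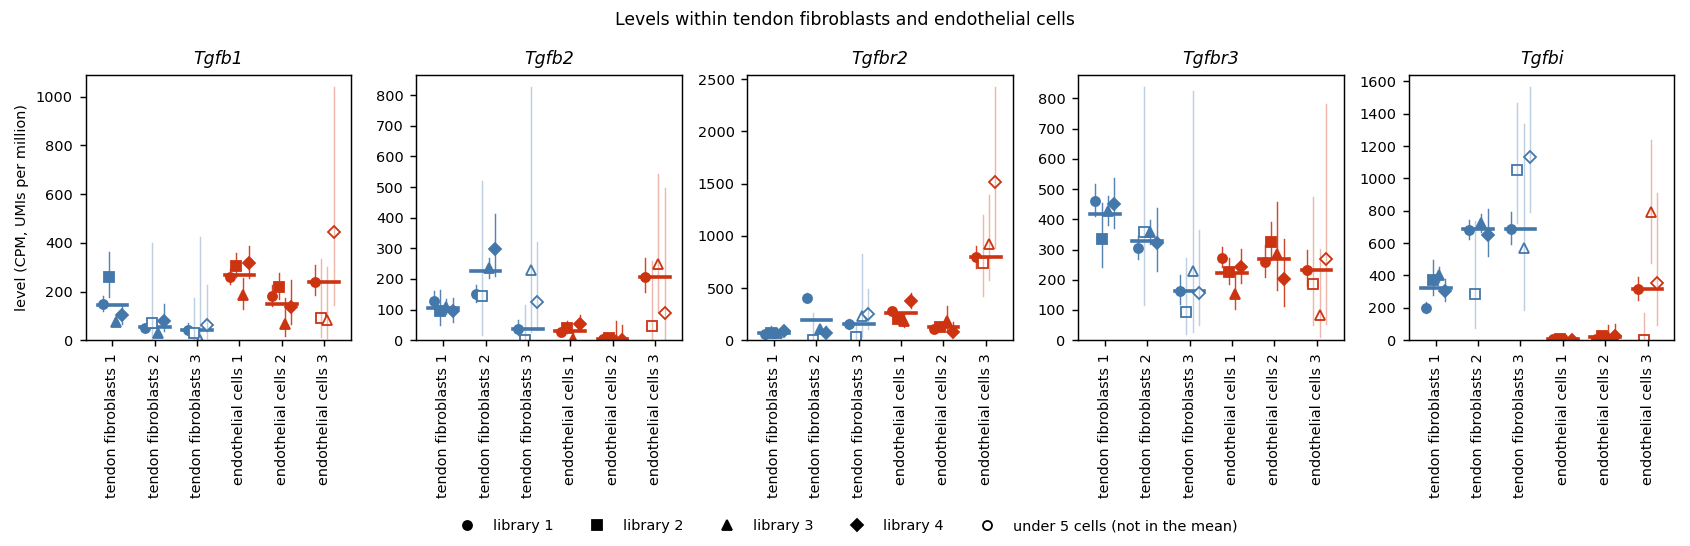
Level (CPM, vertical axis from 0) of 5 genes in the 3 tendon fibroblast and 3 endothelial populations, with 1 marker per library (open under 5 cells), its exact 95% counting interval, and a line at the mean over libraries with 5 or more cells. Tgfbr2 is highest in endothelial cells 3, and Tgfbi is higher in tendon fibroblasts 2 than in tendon fibroblasts 1.

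Tendon fibroblasts 1 and 2 were compared in libraries 1, 3 and 4. Of 10 members 2 were called, against 8.12% of all genes tested (4.33% higher, 3.79% lower). Tgfb1 was higher in tendon fibroblasts 1, at 149.6, 76.8 and 102 CPM against 48.7, 29.1 and 80.6 CPM (log2 fold change 1.46, SE 0.29, edgeR adjusted p = 0.0118). Tgfbi was lower in tendon fibroblasts 1, at 200.5, 406 and 302 CPM against 683, 722 and 652 CPM, without overlap (-1.04, SE 0.23, edgeR adjusted p = 0.0206). Both calls were lost with DESeq2 and without library 1, and that of Tgfb1 also after thinning. Tgfb2 was lower in tendon fibroblasts 1 in 3 of 3 libraries (110.4 ± 17.4 against 228 ± 74.4 CPM, SD, n = 3) without passing (-0.74, edgeR adjusted p = 0.191), and passed only without library 1 (0.0476 to 0.58 over 8 alternatives). Tgfbr3 (446 against 328 CPM) was higher in 3 of 3 libraries and did not pass either (0.64, edgeR adjusted p = 0.121).

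Tgfbr2 in tendon fibroblasts 2 was 406 CPM in library 1 and 108 and 72.5 CPM in libraries 3 and 4, so the high class value of library 1 lay in this population. There 49 of 67 cells had a UMI, and the highest cell held 7.89% of them. Tendon fibroblasts 1 showed no such gap, with 60.5, 70.1 and 86.8 CPM. Tendon fibroblasts 3 had 5 or more cells in library 1 only. In that library they had 689 CPM of Tgfbi, 152 of Tgfbr2, 74.3 of Acvrl1, 37.1 of Tgfb2 and 162 of Tgfbr3. Their Acvrl1 level stood beside 63.0 CPM in endothelial cells 3 of the same library. Among nerve populations, nerve cells 3 had the highest mean Tgfbr3 level of any population, at 521 ± 154 CPM (SD, n = 3), with a median depth of 2591 UMIs per cell, and 99.4 ± 19.7 CPM of Tgfbr1. The Tgfbr3 value rests on 70 UMIs from 32 cells in all and was not tested. Its range of 384 to 688 CPM overlapped the 336 to 461 CPM of tendon fibroblasts 1.

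Genes that hold TGF-beta in the matrix or release it also differed between the classes. The counts that follow are to be read beside the shares of all genes tested that were called: 13.3% higher and 16% lower in tendon fibroblasts, 15.3% and 16.1% in endothelial cells, 7.15% and 17.4% in immune cells, 8.32% and 13.4% in nerve cells. Of 14 genes of the latent complex and its activation, 8 were higher and 3 lower in tendon fibroblasts (median log2 fold change 1.02, against -0.02 for all genes tested). The latent binding protein gene Ltbp2 (121 against 6.42 CPM, log2 fold change 5.36) and the activator gene Thbs1 (554 against 105 CPM, 2.76) were among the largest. In endothelial cells 3 of these 14 were higher and 10 lower (median -1.71, against -0.02). The 3 were Ltbp4 (1056 against 226 CPM, log2 fold change 2.08), Lrrc32, which encodes the membrane anchor GARP of latent TGF-beta (125 against 26.3 CPM, 2.26), and Nrros, which encodes its myeloid counterpart (28.3 against 6.98 CPM, 1.62). Immune cells had 1 of 14 higher and 10 lower, and the 1 was again Nrros (97.9 against 8.94 CPM, 3.10). In nerve cells 2 of 13 tested were higher, Itgb8 (300.3 against 13.5 CPM, log2 fold change 4.51) and Itgav (182 against 49.9 CPM, 1.85), which together encode an integrin known to activate TGF-beta, and 7 were lower. Lrrc32 had 0 UMIs in nerve cells against 600 in other cells, at least 19.7-fold lower. All these named genes had an edgeR adjusted p between 3.7e-08 and 0.0285.

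Of 7 matrix proteins that bind TGF-beta tested in tendon fibroblasts, 6 were higher and 0 lower (median 3.45), where 13.3% of all genes were called higher, with the proteoglycans Fmod (3257 against 34.5 CPM, log2 fold change 7.56), Dcn (27663 against 629.8 CPM, 6.42) and Lum (386 against 15.8 CPM, 5.76) in front. Fmod is also a tendon fibroblast marker, so its rise there is no separate result. Thbs1 and Fbn1 are also in the latent complex list, so the counts of these lists are not independent. All 7 were lower in endothelial cells, all 7 in immune cells and 6 of 7 in nerve cells, where 16.1%, 17.4% and 13.4% of all genes were called lower. Of 12 extracellular antagonists of BMP and activin in the table, 6 of the 7 tested were higher in tendon fibroblasts (13.3% of all genes), among them Nbl1 (812 against 159.6 CPM, log2 fold change 2.90) and Twsg1 (213 against 66.9 CPM, 2.07), and 6 of 6 tested were lower in endothelial cells (16.1% of all genes). Of 17 BMP, GDF and activin ligands in the table, 4 of 8 tested were higher in tendon fibroblasts (13.3% of all genes), including Bmp2 (158 against 21.4 CPM, 3.06) and Inhba (105 against 52.1 CPM, 1.56). None of 7 was higher in endothelial cells and 4 were lower. Against pericytes, however, Bmp4 was higher in endothelial cells (63.4 against 2.66 CPM, from 196 and 3 UMIs, a ratio of 24.7 with an exact 95% interval of 8.34 to 121).

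Downstream of the receptors, transducers and readouts also differed between classes. The transducers Smad1 (167 against 41.1 CPM, 1.75 on the log2 scale, edgeR adjusted p = 0.00076) and Smad5 (141 against 69.0 CPM, 0.80, edgeR adjusted p = 0.0191), which act below ALK1, were higher in endothelial cells. Smad3, which acts below ALK5, was higher in tendon fibroblasts (39.3 against 11.8 CPM, 2.29, edgeR adjusted p = 0.00081). Of 9 readouts of BMP and ALK1 signalling tested in endothelial cells, 5 were higher and 1 lower (median 0.90, against -0.02 for all genes), beside 15.3% and 16.1% of all genes. Id1 was among the higher (863 ± 175 against 125 ± 29.7 CPM, SD, n = 4, log2 fold change 2.55). Of the same 9 in tendon fibroblasts, 1 was higher, Tmem100 (153 against 34.6 CPM, 2.59), and 3 were lower, Id1 among them (-1.92). Another type I receptor gene, Bmpr1a, was lower in endothelial cells, at 3.53 ± 2.47 CPM in endothelial cells against 77.8 ± 4.93 CPM in the rest (SD, n = 4), with a log2 fold change of -4.37 (edgeR adjusted p = 6.9e-05).

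Of 12 TGF-beta readouts tested in tendon fibroblasts, 6 were higher and 3 lower (median 1.13), where 13.3% and 16% of all genes were called, led by Col1a1 (6.68), Ltbp2 (5.36) and Scx (5.28, 37.7 against 0.77 CPM). Col1a1 and Scx are also tendon fibroblast markers, and Ltbp2 is also in the latent complex list. In pericytes 5 of 11 were higher and 5 lower, beside 7.7% and 7.41% of all genes, with the contractile genes Acta2 (8.07), also a pericyte marker, and Tagln (4.42) in front. None was higher in endothelial cells (7 of 11 lower), immune cells (11 of 11 lower) or nerve cells (9 of 11 lower), where 16.1%, 17.4% and 13.4% of all genes were called lower. Immune cells had the highest mean level of Tgfbi among the classes, without overlap with the next class. Their means of Tgfb1, Tgfbr1 and Tgfbr2 were also the highest, but each overlapped the next class. Of these 3, Tgfbr1 and Tgfbr2 were not called, and the Tgfb1 call was lost in 6 of 10 alternatives. Because the list holds markers of tendon fibroblasts and pericytes, its counts cannot show which classes responded to the ligands. Of 8 genes for inhibitors inside the cell, 2 were higher and 0 lower in tendon fibroblasts, 2 higher and 2 lower in endothelial and likewise in immune cells, and 0 higher and 4 lower in nerve cells, beside the shares of all genes given above. Pmepa1 was higher in tendon fibroblasts (684 against 145 CPM, 2.60) and lower in endothelial cells (-2.56), where Smad7 (216 against 99.6 CPM, 0.90) and Smurf2 (96.3 against 46.6 CPM, 0.78) were higher. Immune cells had Skil (345 against 96.7 CPM, 1.40) and Tgif1 (115 against 28.3 CPM, 1.53) higher. These named genes had edgeR adjusted p values between 3.9e-06 and 0.0262.

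The genes whose levels ran most like those of a member over 12 populations, among 10874 genes, are given by Pearson's r of log2(CPM + 10), as a description over points that share libraries and differ in depth. Tgfbi was closest to Ang (r = 0.985) and Rnase4 (0.936), which encode secreted ribonucleases. Eng was closest to Gngt2 (0.959), Tgfb1 to Ocel1 (0.958), Acvrl1 to H2-T23 (0.949), Tgfb2 to Plcd3 (0.931), Bmpr2 to Rnd1 (0.925) and Tgfbr1 to Tuft1 (0.923). Tgfbr2, Tgfb3 and Tgfbr3 had no gene above 0.878. Between members, the highest values were 0.910 for Eng with Bmpr2 and 0.821 for Tgfb2 with Tgfb3.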

How the data were processed

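Single-cell RNA sequencing counts of 4 mouse Achilles tendon libraries were analysed. The authors deposited raw UMI counts per gene and cell with their own population names, and normalized values, which equal the natural log of 1 plus 10000 times a cell's share of its UMIs to within 5.0e-10. Only the counts were tested. Per the submitters' processing notes Cell Ranger, Seurat 2.3.4, R 3.5.2 and the mm10 build were used. Of 15750 gene entries, 4 with a repeated name (0.0186% of UMIs) were left out.

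Counts were summed per library and class or population, for sums of 5 or more cells in at least 3 libraries. They were tested with edgeR 4.0.16 (quasi-likelihood, TMM, filterByExpr, library as a block, R 4.3.3, limma 3.58.1), with Benjamini-Hochberg adjustment over all genes tested. The block pairs both sums of a library, and the correlation of their deviations lay between -0.0704 and 0.167. Alternatives were DESeq2 1.42.0, no filter, no block, sums of 10 or more cells, cells thinned to 2400 UMIs, no cells in the top 5% by UMIs (78 cells, the only step aimed at doublets), red blood cells among the others, classes weighted equally, and each library left out. Sums of 10 or more cells repeated the main fit for tendon fibroblasts, endothelial cells, pericytes and endothelial cells against pericytes. For nerve cells and endothelial cells 1 against 2 they repeated the fit without library 4, so those alternatives are the same fit. Leaving out a library left 2 for immune cells, bursal fibroblasts and tendon fibroblasts 1 against 2, fewer than the 3 required otherwise. Shares were computed with Python 3.11.15 and scipy 1.17.1, with exact 95% intervals. The edgeR test was tried on simulated data, with 200 genes per comparison given a log2 fold change of 2. It called 42% of these for immune cells and 62.5% for tendon fibroblasts 1 against 2. For bursal fibroblasts it called 65% and for nerve cells 68.5%, and elsewhere 74% to 86%. A gene that did not pass, above all in immune cells, may therefore still differ by that much. All 10 genes are named. From each pathway list up to 3 called genes per comparison were named, the largest rises and then falls. The genes and lists were chosen with earlier results of these data known.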

Additional observations from a re-analysis of the deposited data

Results flagged for a closer look

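Over 40 sets of 4 libraries (a gene in a class), 6 had 1 library far from the other three by Dixon's test at 0.829, and chance flags about 1 in 20 sets. Acvrl1 in tendon fibroblasts stood at 35.77 CPM in library 1 and at 17.21 to 19.01 in the others. Eng in tendon fibroblasts stood at 40.16 CPM in library 2, from 7 UMIs in 14 cells, and at 26.97 to 28.51 in the others. Tgfb1 in pericytes stood at 65.37 CPM in library 1 and at 106 to 113.7 in the others. Tgfbi in pericytes stood at 48.59 CPM in library 4, from 11 UMIs, and at 0 to 1.816 in the others. The cell with 5 of them had tendon fibroblast markers at 2341 CPM, against 1056 in the 15 other pericytes, and pericyte markers at 5823 against 18330, whose part was not tested. Tgfb2 in nerve cells stood at 191.3 CPM in library 4 and at 0 to 12.36 in the others, and all 10 UMIs came from 1 cell. In that cell pericyte markers stood at 1693 CPM, against 350.1 in the 5 other nerve cells of the library, immune markers at 480.5 against 116.7 and nerve markers at 6841 against 18790, and their part in the value was not tested. Eng in nerve cells stood at 12.36 CPM in library 3, which is 1 UMI, and at 0 in the others.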

How the results depend on the processing

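Of 45 called results, 29 kept their call in every alternative run and 0 changed direction. The number of called genes stayed within 1.5 times its value in every alternative for tendon fibroblasts, endothelial, immune and nerve cells and for endothelial cells against pericytes. Leaving out 1 library gave 2 to 7 calls for pericytes (4 with all), 1 to 2 for tendon fibroblasts 1 against 2 (2 with all) and 0 to 2 for endothelial cells 1 against 2 (2 with all). Without the replicate block, 1 gene was called in bursal fibroblasts (3 with it) and 1 between endothelial cells 1 and 2. Without the filter, 5 were called in bursal fibroblasts and 4 between tendon fibroblasts 1 and 2. With DESeq2, 0 were called between tendon fibroblasts 1 and 2, where edgeR called 2, and 1 between endothelial cells 1 and 2. With classes weighted equally, 1 was called in bursal fibroblasts. The cause was not tested.

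Only results not called changed sign. Tgfbr3 turned to 0.17 in endothelial cells with equal weights and to 0.14 in bursal fibroblasts with equal weights. In nerve cells Tgfbr3 turned to -0.044 without the filter and to -0.27 without cells of high UMI count. Bmpr2 in pericytes turned to -0.038 without the filter and to -0.071 without cells of high UMI count, and Tgfb1 in bursal fibroblasts to 0.12 with equal weights. Acvrl1 between endothelial cells 1 and 2 turned to 0.020 with 10 or more cells per sum and to 0.010 without cells of high UMI count. Leaving out 1 library gave ranges that crossed 0: for Bmpr2 in pericytes -0.00066 to 0.058, for Tgfbr3 in nerve cells -0.031 to 0.29 and in bursal fibroblasts -0.76 to 0.083, and for Tgfb1 in bursal fibroblasts -0.58 to 0.47. Between tendon fibroblasts 1 and 2 the ranges were -0.015 to 0.23 for Eng and -1.09 to 0.048 for Tgfb3, and between endothelial cells 1 and 2 -0.21 to 0.020 for Acvrl1. Sums of 10 or more cells gave no value for immune cells, bursal fibroblasts and tendon fibroblasts 1 against 2, nor did thinning and the limit on high UMI counts for bursal fibroblasts. After thinning, 8 of 70 shares of UMIs held by a class moved by more than the spread between libraries.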
